A study of Homo sapiens with 12 samples.

Results

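The nuclear-encoded genes of oxidative phosphorylation were examined in SHEP cells built so that MYCN activity and depletion of TCEAL1 could be switched on separately or together. Members were taken by symbol from a deposited table of 28576 genes: every row beginning NDUF, UQCR, COX and a digit, or ATP5, the 4 SDH subunits and the SDHAF factors. Of 144 such rows, 32 were pseudogenes and were left out, and 5 fell below the minimum of 0.5 CPM (read counts rescaled so that each library adds up to 1000000) in at least 3 of the 12 libraries. The remaining 107 rows are the members, among 18674 genes of the table that passed the same minimum. They comprise 101 coding genes, 4 noncoding rows and 2 readthrough rows. The coding genes are 78 subunits of the 5 complexes, 21 assembly factors, the supercomplex factor COX7A2L and the ATP synthase inhibitor ATP5IF1. The symbol rule does not take in assembly factors with other names, CYC1 or cytochrome c, which were looked at separately, and no gene of the mitochondrial genome is among the rows analysed.

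Oxidative phosphorylation moves electrons from NADH and succinate through complexes I and II to ubiquinone, then through complex III and cytochrome c to complex IV, where oxygen is reduced. Complexes I, III and IV pump protons across the inner mitochondrial membrane, and complex V, the ATP synthase, uses the gradient to make ATP. Except for complex II, each complex combines subunits from the mitochondrial genome with subunits from nuclear genes, and dedicated assembly factors insert cofactors and join the parts. MYC proteins are known to bind many nuclear genes for mitochondrial proteins, and neuroblastoma cells use both glycolysis and respiration.

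SHEP is a human neuroblastoma line without MYCN amplification. All 12 libraries came from SHEP cells that carried an OHT-activated MYCN-ER fusion together with a doxycycline-inducible short hairpin RNA against TCEAL1, a small nuclear protein whose chromatin binding the study measured. Ctrl received neither compound, OHT received 4-hydroxytamoxifen (200 nM), Dox received doxycycline (1 µg/ml) and OHT_Dox received both, with 3 libraries in each group. The labels describe no vehicle control, no control hairpin and no cells without the fusion, so an effect of either compound itself cannot be told apart from that of MYCN-ER or the hairpin. They give replicate numbers without saying whether these were separate cultures, so p-values measure only the spread between these libraries, which may be technical.

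Libraries held between 44466458 and 57694970 reads, recovered exactly from the CPM. TCEAL1, the hairpin's target, stood at 9.71, 9.11 and 10.7 CPM in Ctrl, 8.23, 9.75 and 8.99 in OHT, 2.62, 2.54 and 2.74 in Dox and 2.58, 2.5 and 1.73 in OHT_Dox, so all 6 libraries with doxycycline were below all 6 without it. MYCN RNA was 496 ± 69.4 CPM in Ctrl, 536 ± 94.4 in OHT, 538 ± 25.4 in Dox and 425 ± 47.4 in OHT_Dox (SD, n = 3). It was lower in OHT_Dox against Dox, a log2 fold change of -0.34 (limma, adjusted p = 0.0191), with the groups apart. Against OHT the change was -0.33 (limma, adjusted p = 0.135), also with the groups apart. OHT acts on the fusion protein, so the MYCN RNA level is no check of its activation. Mesenchymal neuroblastoma markers were all 7 above the minimum (summed 3317 to 4367 CPM over the libraries). Of 7 adrenergic markers 3 were above it, with PHOX2A and DBH near 0 CPM, and none of the 4 haematopoietic or 3 muscle markers passed. KRT8 and KRT18 carried the epithelial list, whereas EPCAM and CDH1 had medians of 0.542 and 0.235 CPM. In bulk RNA, fewer cells with a transcript and less transcript per cell cannot be told apart, and CPM is a share of each library.

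In Ctrl the 107 members summed to 11376 ± 609 CPM (SD, n = 3). This sum includes the noncoding and readthrough rows. The readthrough row NDUFC2-KCTD14 holds nearly the same reads as NDUFC2, so some reads are counted more than once. The 101 coding genes alone summed to 10884 ± 609 CPM. The levels of different genes in Ctrl were set side by side per kilobase of the principal transcript. Complex IV subunits had a median of 184 CPM per kb, complex V subunits 144, complex III subunits 82.1, complex II subunits 77.8 and complex I subunits 72.1. Assembly factors were lower, with a median of 22.8 CPM per kb against 101 for all subunits. The highest levels per kb were those of ATP5MF, a membrane subunit of the ATP synthase (552), UQCRH, the hinge subunit of complex III (465), and COX6A1 of complex IV (439). The lowest were COX18, which inserts a core subunit of complex IV into the membrane (2.07), and NDUFAF5, which modifies a complex I subunit (2.64). These levels depend on the length used. The principal transcript of ATP5MF has 305 bases, while the median of its annotated transcripts is 562.5. For COX18 these lengths are 6846 and 1086, and for NDUFAF5 5529 and 676. ATP5MF also shares exons with the readthrough row ATP5MF-PTCD1. In OHT the members summed to 10505 ± 421 CPM, in Dox to 10609 ± 181 and in OHT_Dox to 10867 ± 94.6. For the coding genes alone these sums were 10025 ± 420, 10109 ± 186 and 10345 ± 98.0 CPM.

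The mean of a member was highest in Ctrl for 71 of 107 members (66.4%), against 21.5% of all genes tested. It was lowest in OHT for 54 members (50.5%, against 28.4% of all genes) and lowest in Dox for 34 (31.8%, against 18.5%). Averaged over the members, the deviation of a library from the mean of the 12, on the log2(CPM + 0.5) scale, was -0.03, 0.13 and 0.08 in Ctrl libraries 1, 2 and 3. It was -0.10, 0.01 and -0.05 in OHT, -0.01, -0.04 and -0.04 in Dox, and 0.02, 0.01 and 0.02 in OHT_Dox. Ctrl 2 and Ctrl 3 therefore lay above every other library, while Ctrl 1 lay within the range of the treated groups.

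**Figure D1:**
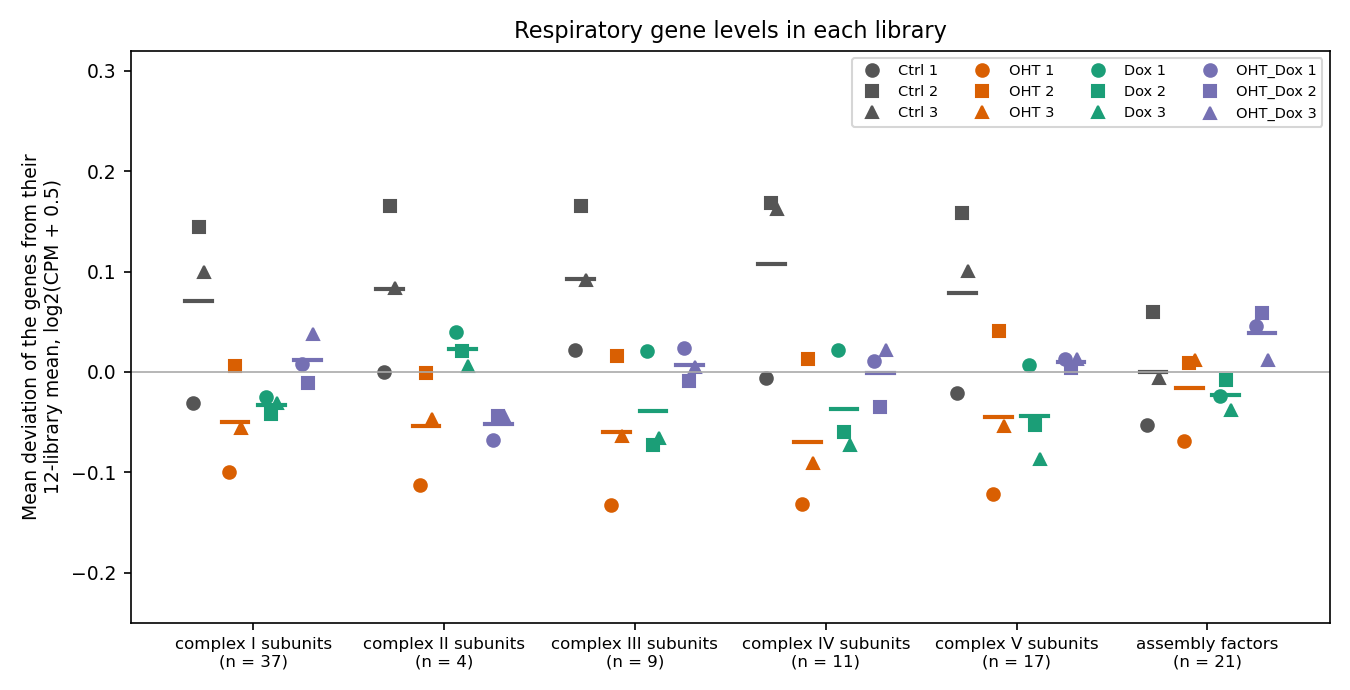
Mean deviation of the genes of each class from their mean over the 12 libraries (y axis, log2(CPM + 0.5)), by complex and for assembly factors (x axis). Symbols are libraries 1 to 3 of each group and bars are group means. Ctrl 2 and Ctrl 3 are the highest libraries for the subunits of complexes I to V, and Ctrl 1 lies among the treated libraries.

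OHT against Ctrl compares cells given OHT to activate MYCN-ER with cells not given it, without doxycycline in either. With OHT, 22 of 107 members fell and 4 rose at an adjusted p below 0.05 (limma, Benjamini-Hochberg over all genes tested). Over all genes, 8.79% fell and 12.6% rose in this comparison. The median change of the members was -0.13 on the log2(CPM + 0.5) scale, against -0.01 for all genes, and 90 of 107 members had a negative sign. All changes were small, with the largest fall at -0.34. All 3 OHT libraries were below all 3 Ctrl libraries for 22 members (16.7% of all genes) and above them for 6 (17.5% of all genes). Marker lists also moved: the epithelial list summed to 1191 to 1249 CPM in OHT against 1321 to 1448 in Ctrl, and the adrenergic list to 74.7 to 84.0 against 67.6 to 72.0. Their part in the result was not tested.

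Subunits and assembly factors were also counted apart. Of the 78 subunits 18 fell (23.1%) and 1 rose (1.28%), with a median change of -0.14. Of the 21 assembly factors 2 fell (9.52%) and 3 rose (14.3%), with a median of -0.06. Among all genes 8.79% fell and 12.6% rose, so the shares of the assembly factors were near those of all genes. The same shares of all genes apply to the counts by complex that follow. The difference between the classes was not tested.

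Complex IV, cytochrome c oxidase, had the most falls for its size, 6 of 11 subunits, with a median change of -0.20. COX5B, a subunit on the matrix side of the enzyme, stood at 99.2, 133 and 111 CPM in Ctrl 1, 2 and 3 and at 89.5, 98 and 93.9 in OHT 1, 2 and 3, a log2 fold change of -0.27 (SE 0.077, adjusted p = 0.0145). All OHT libraries were below all Ctrl libraries, and Ctrl 2 was well above the other two Ctrl libraries. COX6C, a small membrane subunit, was 114, 149.9 and 122 CPM in Ctrl and 103, 111 and 109 in OHT, a change of -0.24 (SE 0.075, adjusted p = 0.0249). COX4I1, the ubiquitous form of a subunit through which ATP regulates the enzyme, had 269.9, 323 and 289 CPM in Ctrl and 235, 263 and 256 in OHT, a change of -0.22 (SE 0.064, adjusted p = 0.0164). Neither gene's groups overlapped. COX6A1 (-0.23), COX7B (-0.23) and COX7A2 (-0.20) made up the rest of the falls. Of the 9 complex IV assembly factors, COX17, the copper chaperone of the enzyme, fell and COX20, a chaperone of its second core subunit, rose. COX17 was 16.8, 23.2 and 15.8 CPM in Ctrl and 13.1, 15.6 and 14.6 in OHT, a change of -0.34 (SE 0.11, adjusted p = 0.0389), and the groups did not overlap. COX20 was 69.8, 68 and 65.1 CPM in Ctrl and 92.1, 70 and 81.1 in OHT, a change of 0.25 (SE 0.088, adjusted p = 0.0466), with OHT 2 only just above the highest Ctrl library.

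In complex III, which passes electrons from ubiquinol to cytochrome c, 3 of 9 subunits fell and none rose, with a median change of -0.14. UQCRB, a subunit beside the ubiquinone site, was 177, 208 and 183 CPM in Ctrl and 148, 164 and 149 in OHT, a change of -0.30 (SE 0.074, adjusted p = 0.00615). Its OHT libraries all lay below its Ctrl libraries. UQCRQ, another small subunit (-0.20), and UQCRH (-0.17) were the other two, and edgeR and TMM scaling did not call UQCRH. COX7A2L, which joins complexes III and IV into supercomplexes, changed by -0.20.

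Complex I, the NADH dehydrogenase and the largest complex, had 6 falls and 1 rise among 37 subunits, with a median change of -0.13. NDUFA13, an accessory subunit, was 109.9, 139.6 and 120.3 CPM in Ctrl and 97, 106 and 103 in OHT, a change of -0.27 (SE 0.075, adjusted p = 0.0152). NDUFB11, a membrane-arm subunit, was 67.3, 78.1 and 71.9 CPM in Ctrl and 60, 61.5 and 59 in OHT, a change of -0.26 (SE 0.063, adjusted p = 0.00483). In neither gene did the groups overlap. NDUFA1 (-0.23), NDUFA3 (-0.22) and NDUFS6 (-0.21) were the other accessory subunits that fell. The subunit that rose was NDUFV3, an accessory part of the NADH-binding module, at 53.7, 52.3 and 56.9 CPM in Ctrl and 62.5, 60.9 and 60.2 in OHT, a change of 0.17 (SE 0.057, adjusted p = 0.0375). Among the 8 complex I assembly factors 2 rose and none fell. NDUFAF6, needed early in assembly, was 28, 25.5 and 25.2 CPM in Ctrl and 34.6, 29.7 and 33.1 in OHT, a change of 0.30 (SE 0.073, adjusted p = 0.00545). NDUFAF7, another assembly factor, rose by 0.18. For these 3 rises every OHT library was above every Ctrl library.

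Of the 4 subunits of complex II, the succinate dehydrogenase, SDHC, a membrane anchor, fell by 0.16 (adjusted p = 0.048), a call lost in 13 of 22 alternatives, edgeR and TMM scaling among them. Among its 4 assembly factors SDHAF2, which attaches the flavin cofactor to SDHA, was 44.7, 50.7 and 45.4 CPM in Ctrl and 36, 40.2 and 38.5 in OHT, a change of -0.29 (SE 0.067, adjusted p = 0.00372). The groups were apart, with the highest OHT library below the lowest Ctrl library. Complex V had 2 falls among 17 subunits and no rise, both outside the catalytic F1 part. ATP5ME, the membrane subunit e, was 37.2, 44.2 and 38.9 CPM in Ctrl and 30.5, 33.9 and 30.4 in OHT, a change of -0.34 (SE 0.088, adjusted p = 0.00906). ATP5PD of the peripheral stalk changed by -0.21, and the inhibitor ATP5IF1, which blocks ATP hydrolysis, by -0.23. None of the 5 F1 subunits passed the limma test, 1 had an unadjusted p below 0.05, and edgeR called none and DESeq2 1. Among them ATP5F1B, the catalytic subunit, was 769.6, 810.3 and 783 CPM in Ctrl and 730.0, 800.0 and 771 in OHT, a change of -0.04 (SE 0.05, adjusted p = 0.634).

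The count of falls depended on single libraries. Without Ctrl 1 it was 48 of 107, against 9.09% of all genes. Without Ctrl 2 or without OHT 1 it was 4 (3.74% of members), a smaller share than among all genes, of which 6.09% and 5.87% fell in those fits. Without OHT 3 it was 11, against 6.05% of all genes. The count of rises was 1 without Ctrl 2 or OHT 1, and 2 without OHT 2, OHT 3, Dox 2 or OHT_Dox 1. NDUFB11, UQCRB, SDHAF2 and NDUFAF6 passed the test under all 22 alternatives tried, which included leaving out each library.

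**Figure D2:**
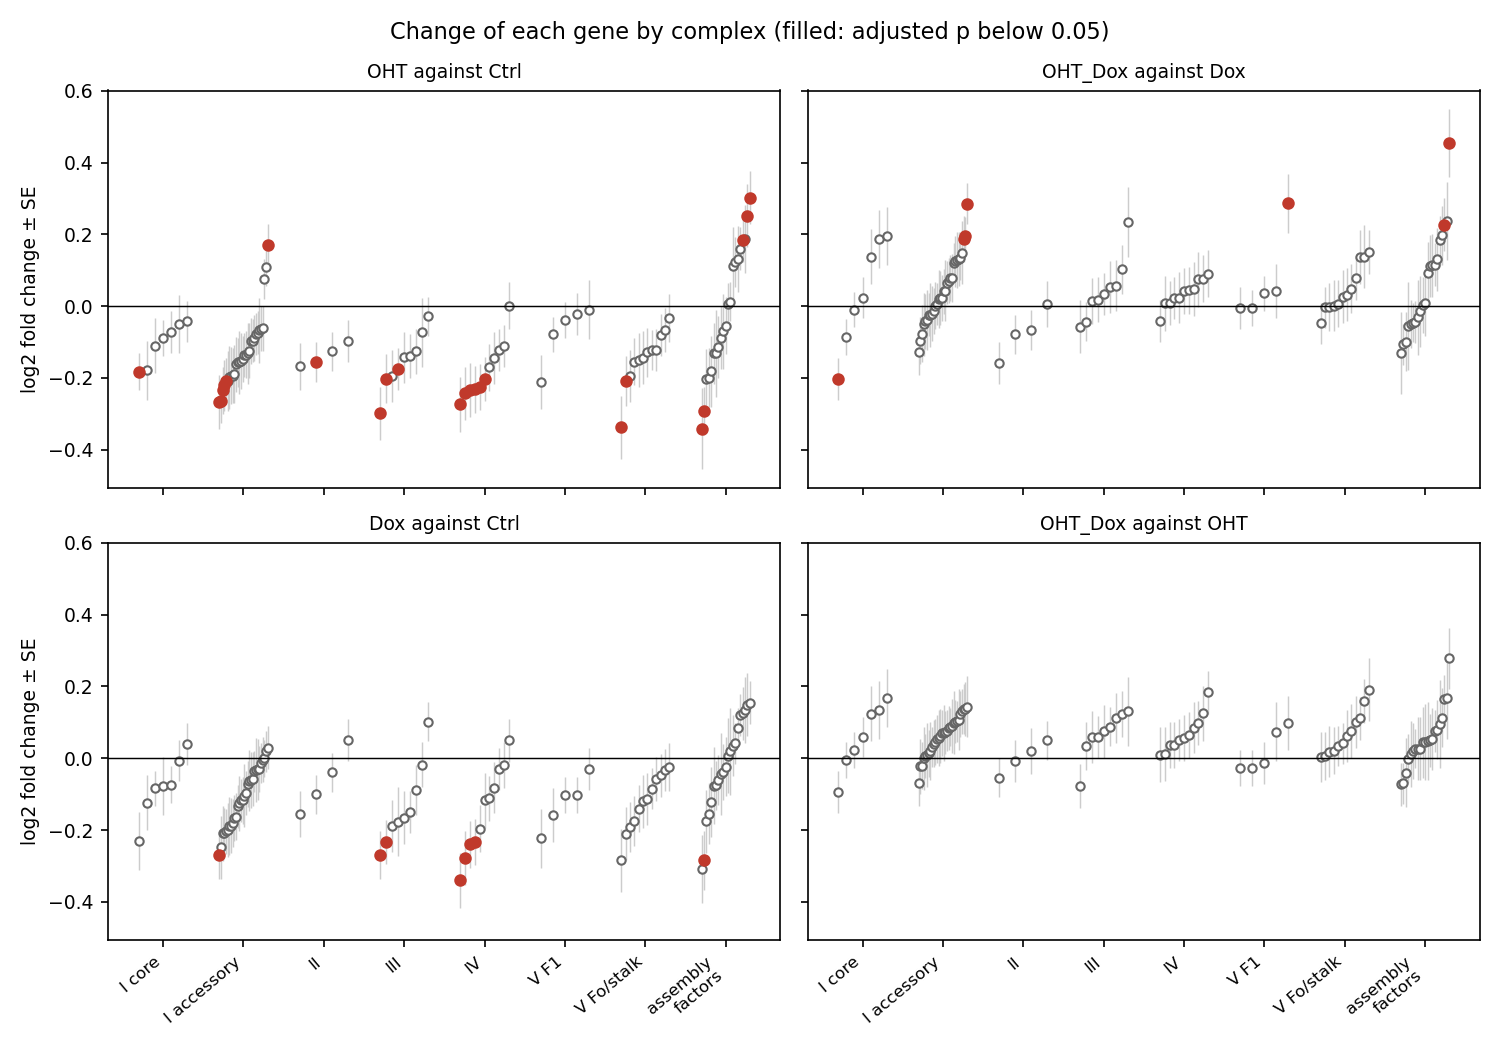
Log2 fold change with its standard error (y axis) for each subunit and assembly factor, ordered by size within its class (x axis), in the 4 comparisons of groups of 3 libraries. Filled symbols passed the test. Most subunits lie below 0 for OHT against Ctrl and Dox against Ctrl, and around or above 0 for OHT_Dox against Dox and OHT_Dox against OHT.

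Promoter windows from RefSeq (build GRCh38.p14, 250 bases before to 50 after a start) were found for 91 of the 107 members and for 11655 genes tested, and were searched on both strands for 4 short motifs of factors known to act on respiratory genes. Where a gene had several windows, as 14 members did, only the first one listed was read. The member windows include those of the noncoding rows and of NDUFC2-KCTD14, and some overlap. COX10 and COX10-AS1 share an ETS and a YY1 match, and NDUFA6 and NDUFA6-DT share a YY1 match. Such a site is counted for both rows. The ETS motif CCGGAAG, bound by GABPA and related factors, was in 27 of the 91 member windows (29.7%) and in 18.1% of all windows. The NRF1 core GCGCANGCG was in 29.7% of member windows and 14.2% of all, and the YY1 motif AANATGGC in 28.6% and 9.63%. The E-box CACGTG, the motif of MYC and MAX, was in 13.2% of member windows and 9.87% of all.

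Among the 18 members that fell with OHT and had a window, 11 held the ETS motif (61.1%), 5 the NRF1 core, 6 the YY1 motif and 1, ATP5ME, the E-box. Of the 27 members with the ETS motif, 11 fell and none rose with OHT, with a median change of -0.17. Of the 64 without it, 7 fell and 3 rose, with a median of -0.12. Over all genes, those with the motif had a median change of -0.04 and those without it 0.00. Of all 2110 genes with the motif 235 fell and 231 rose. Of the 9545 without it 938 fell and 1430 rose. None of the 6 members that rose with OHT in either setting and had a window held any of the 4 motifs there. Over any annotated window of these 6 genes, 1 had the ETS motif and 1 the YY1 motif. These are letter matches, given as a description with no test. The 7 fallen members without the ETS motif in their window are not shown. Shown first, as the 120 bases before the start, are the windows of 5 of the 11 fallen members with it. The motif or its reverse complement CTTCCGG is in capitals. These windows are followed by those of 3 members that rose, which have no match. Their positions, in the order shown, are chr2:97645942-97646061 (+ strand), chr12:120437993-120438112 (+ strand), chr5:132866522-132866641 (+ strand), chr19:19516105-19516224 (+ strand), chr11:61430004-61430123 (+ strand), chr21:42893189-42893308 (+ strand), chr1:244835356-244835475 (+ strand) and chr19:35995068-35995187 (+ strand).
COX5B: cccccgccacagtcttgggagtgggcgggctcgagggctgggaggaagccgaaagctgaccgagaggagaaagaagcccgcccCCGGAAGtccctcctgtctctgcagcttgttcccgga
COX6A1: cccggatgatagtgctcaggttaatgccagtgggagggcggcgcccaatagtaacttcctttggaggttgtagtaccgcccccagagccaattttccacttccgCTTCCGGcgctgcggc
UQCRQ: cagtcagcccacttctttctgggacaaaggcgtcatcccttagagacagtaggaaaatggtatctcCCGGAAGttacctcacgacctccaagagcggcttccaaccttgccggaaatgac
NDUFA13: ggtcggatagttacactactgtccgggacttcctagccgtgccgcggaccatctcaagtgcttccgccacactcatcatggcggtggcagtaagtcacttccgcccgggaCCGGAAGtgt
SDHAF2: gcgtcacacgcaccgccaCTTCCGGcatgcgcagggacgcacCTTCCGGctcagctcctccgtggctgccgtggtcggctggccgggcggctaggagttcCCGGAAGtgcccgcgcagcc
NDUFV3: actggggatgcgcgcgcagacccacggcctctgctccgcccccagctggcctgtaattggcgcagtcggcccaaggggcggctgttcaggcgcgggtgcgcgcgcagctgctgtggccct
COX20: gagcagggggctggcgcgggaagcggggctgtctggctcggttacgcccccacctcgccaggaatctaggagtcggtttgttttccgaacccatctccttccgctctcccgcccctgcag
SDHAF1: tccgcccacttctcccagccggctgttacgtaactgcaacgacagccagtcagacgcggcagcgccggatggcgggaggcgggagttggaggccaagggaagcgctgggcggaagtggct

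Within the 120 bases shown, SDHAF2 holds the ETS letters 3 times and the other 4 fallen members shown hold them once each. COX5B, COX6A1 and UQCRQ fell with OHT and are also below Ctrl with doxycycline, as described further on. NDUFV3 and COX20 rose with OHT in uninduced cells, and NDUFV3 and SDHAF1 rose with OHT in the presence of doxycycline.

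OHT_Dox against Dox asks the same of OHT in cells in which the hairpin was induced, with other libraries on both sides. Here few respiratory genes moved and most of those rose: 6 of 107 rose and 1 fell, where 11.5% of all genes rose and 14.5% fell. The median change of the members was 0.02, against -0.03 for all genes, and 70 members had a positive sign. The 3 OHT_Dox libraries were all above the 3 Dox libraries for 21 members (17.4% of all genes) and all below for 6 (23.9% of all genes). Of the 78 subunits 4 rose and 1 fell, and of the 21 assembly factors 2 rose.

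SDHAF1, which helps to insert iron-sulfur clusters into SDHB, was 9.92, 10.4 and 8.88 CPM in Dox and 13.2, 12.7 and 14.8 in OHT_Dox, a change of 0.46 (SE 0.095, adjusted p = 0.00142) and the largest of any member in the 4 comparisons of groups. Every OHT_Dox library was above every Dox library, and the Ctrl libraries (11.7, 13.4 and 11.4) lay between or among them. NDUFV3 was 50.8, 52.8 and 55.3 CPM in Dox and 64.7, 64.7 and 64.3 in OHT_Dox, a change of 0.28 (SE 0.057, adjusted p = 0.00094). NDUFAF6 was 27.5, 29.4 and 29 CPM in Dox and 33.4, 35.2 and 32.2 in OHT_Dox, a change of 0.23 (SE 0.073, adjusted p = 0.0271). NDUFV3 and NDUFAF6 were the 2 members that rose with OHT in both settings. The settings share no library but were fitted together with a shared spread. Neither gene kept its call in both settings under every alternative tried. The rise of NDUFV3 in OHT against Ctrl was lost in 8 alternatives, and that of NDUFAF6 in OHT_Dox against Dox in 6. ATP5F1D, a central stalk subunit of the ATP synthase, was 42, 41.7 and 45.4 CPM in Dox and 49, 48.7 and 60.7 in OHT_Dox, a change of 0.29 (SE 0.082, adjusted p = 0.0137). OHT_Dox 3 was the highest of its libraries by a wide margin, and without it the gene no longer passed the test.

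Among the accessory subunits of complex I, NDUFA10 was 87.3, 92.5 and 92.2 CPM in Dox and 102, 103 and 107 in OHT_Dox, a change of 0.20 (SE 0.052, adjusted p = 0.00846). NDUFB10 was 86.1, 80.9 and 84 CPM in Dox and 97.1, 90.7 and 98.1 in OHT_Dox, a change of 0.19 (SE 0.065, adjusted p = 0.0388). That call was lost in 8 of the 22 alternatives. NDUFB10 also fell in Dox against Ctrl, a comparison that shares the Dox libraries. NDUFS1, a core subunit with several iron-sulfur clusters, was 131, 130.1 and 128 CPM in Dox and 112, 118 and 107 in OHT_Dox, a change of -0.20 (SE 0.059, adjusted p = 0.0139). In all 3 genes the groups were apart. None of the 11 complex IV subunits passed the limma test here or had an unadjusted p below 0.05, and edgeR and DESeq2 called none. None of the 9 complex III subunits passed the limma test, 1 had an unadjusted p below 0.05, and edgeR called none and DESeq2 1. COX5B (0.07), UQCRB (-0.06) and NDUFB11 (0.07) had changes near 0. The count of rises was 3 without Dox 2, and the single fall was lost without Dox 2 or OHT_Dox 3. SDHAF1 and NDUFV3 passed the test under all 22 alternatives.

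**Figure D3:**
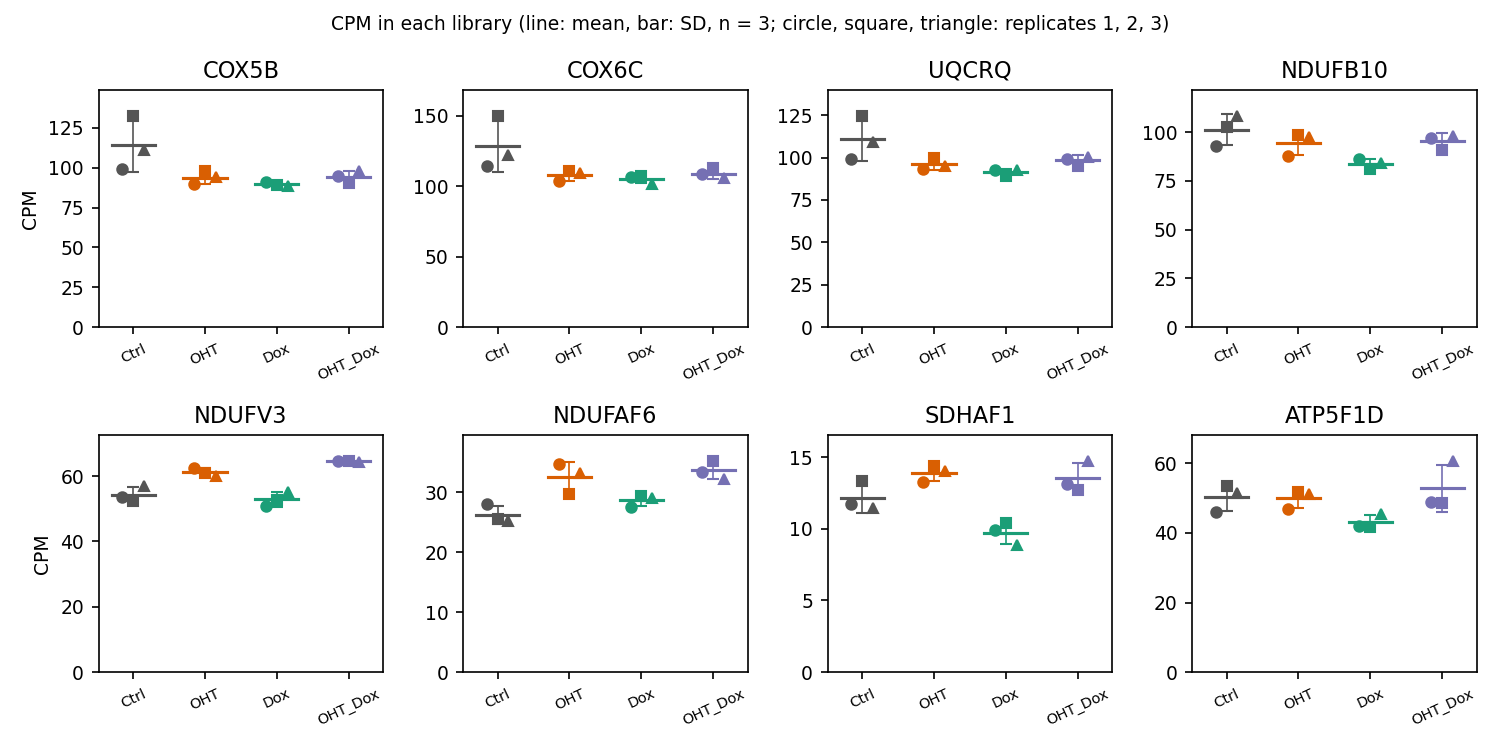
CPM (y axis, from 0) of 8 members in the 12 libraries by group (x axis), with the group mean and SD. COX5B, COX6C and UQCRQ are highest in Ctrl, NDUFB10 is lowest in Dox, NDUFV3 and NDUFAF6 are higher with OHT in both settings, and SDHAF1 and ATP5F1D are lowest in Dox.

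Dox against Ctrl compares cells with the hairpin induced with uninduced cells, both without OHT. It shares the Ctrl libraries with the first comparison, so a high or low Ctrl library moves both alike. With doxycycline 8 of 107 members fell and 1 rose, where 2.61% of all genes fell and 5.68% rose. The median change of the members was -0.08, against 0.05 for all genes, and 89 members had a negative sign. All 3 Dox libraries were below all 3 Ctrl libraries for 28 members (9.77% of all genes) and above them for 4 (19.1% of all genes).

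Of the 8 falls 7 were subunits, 4 of them among the 11 of complex IV. COX5B was 90.8, 89.2 and 88.7 CPM in Dox, against 99.2, 133 and 111 in Ctrl, a change of -0.34 (SE 0.077, adjusted p = 0.0152). The 3 Dox libraries lay within 3 CPM of each other and below every Ctrl library. COX6C was 107, 107 and 102 CPM in Dox, against 114, 149.9 and 122 in Ctrl, a change of -0.28 (SE 0.075, adjusted p = 0.0301). COX6A1 changed by -0.24 and COX4I1 by -0.23. In complex III, UQCRQ was 92.7, 89.3 and 92.7 CPM in Dox, against 99, 125 and 109 in Ctrl, a change of -0.27 (SE 0.067, adjusted p = 0.0222). UQCRC1, a core structural subunit, was 180.1, 178 and 182 CPM in Dox, against 199, 206 and 231 in Ctrl, a change of -0.23 (SE 0.061, adjusted p = 0.0274). For both genes the groups were apart. NDUFB10, which joins the membrane arm of complex I, was 86.1, 80.9 and 84 CPM in Dox, against 92.9, 102 and 108 in Ctrl, a change of -0.27 (SE 0.065, adjusted p = 0.0187). The assembly factor NDUFAF8, a partner of NDUFAF5, was 34.5, 34 and 34.2 CPM in Dox, against 36.8, 46.4 and 42.8 in Ctrl, a change of -0.28 (SE 0.082, adjusted p = 0.0397). No subunit of complex II or V passed the limma test, with 1 of 4 and 7 of 17 at an unadjusted p below 0.05. For these 2 complexes edgeR called 0 and 1 subunits and DESeq2 1 and 5.

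The 1 rise was the noncoding row COX10-AS1, antisense to the haem-modifying assembly factor COX10. It was 111, 82.5 and 88.6 CPM in Ctrl and 107, 133 and 136 in Dox, a change of 0.41 (SE 0.12, adjusted p = 0.0457), and Dox 1 lay within the Ctrl range. COX10 itself was 124, 105 and 124 CPM in Ctrl and 130.2, 127 and 125 in Dox, a change of 0.12 (SE 0.059, adjusted p = 0.202). The annotated exons of the 2 genes do not overlap. COX10-AS1 was not called with TMM scaling, edgeR or DESeq2.

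The falls with doxycycline also depended on single libraries and on scaling. Their count was 34 without Ctrl 1, where 4.85% of all genes fell. It was 0 without Ctrl 2, Ctrl 3 or Dox 2, where 1.07%, 0.653% and 0.600% of all genes fell. It was 1 without Dox 3 (1.16% of all genes), 5 without Dox 1 (1.41%) and 15 without OHT_Dox 3 (3.32%). With TMM scaling 14 members fell and none rose, where 4.05% of all genes fell and 2.83% rose, while the median of all genes moved from 0.05 to 0.01. The epithelial marker list, carried by KRT8 and KRT18, summed to 920 to 941 CPM in Dox against 1321 to 1448 in Ctrl, and the mesenchymal list to 3347 to 3535 against 4078 to 4367. Their part in the result was not tested.

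**Figure D4:**
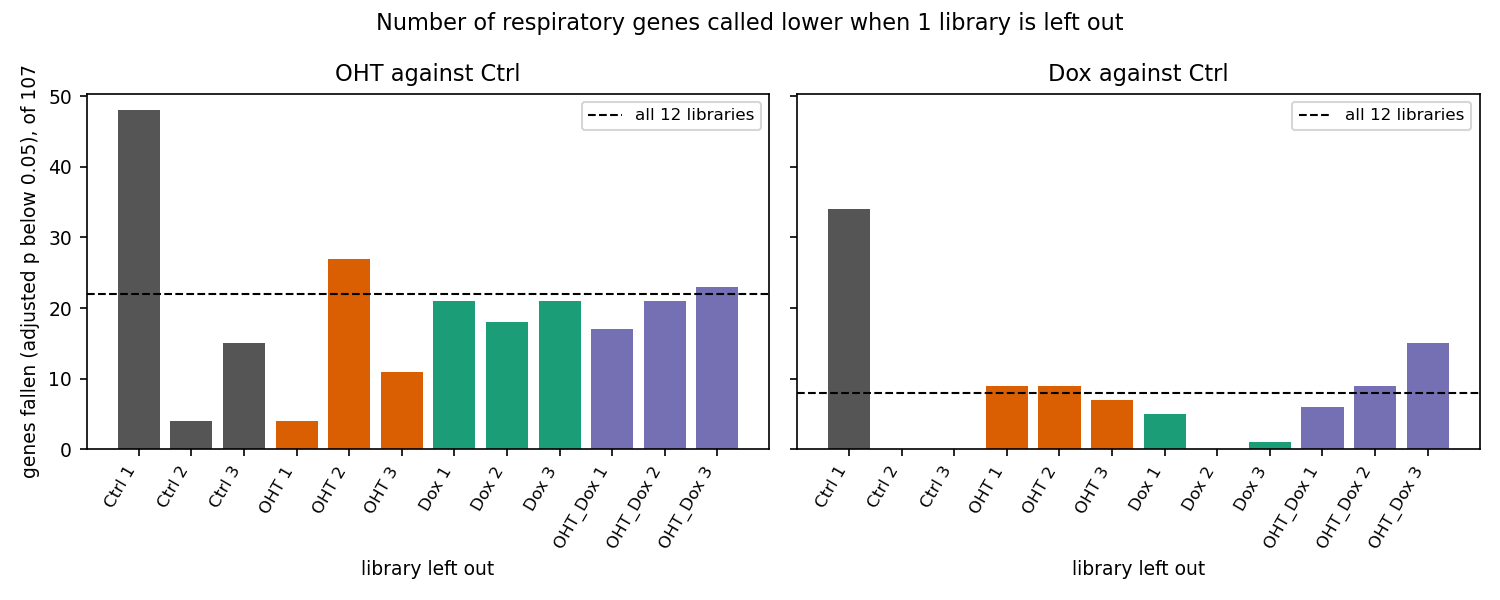
Number of the 107 members called lower (y axis) when 1 library is left out (x axis), for OHT against Ctrl and Dox against Ctrl. The dashed line is the count with all 12 libraries, 22 and 8. Leaving out Ctrl 1 raises both counts, to 48 and 34, and leaving out Ctrl 2 lowers them to 4 and 0.

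OHT_Dox against OHT compares cells given doxycycline to induce the hairpin with cells not given it, with OHT in both. No member passed the limma test in either direction, where 0.509% of all genes rose and 1.59% fell. At an unadjusted p below 0.05 there were 7 members, and edgeR and DESeq2 called none. The median change of the members was 0.06, against 0.02 for all genes, and 90 members had a positive sign. The OHT_Dox libraries were all above the OHT libraries for 15 members (10.4% of all genes) and all below for 1 (8.33% of all genes). COX19, a copper-handling assembly factor of complex IV, was 17.8, 16.6 and 19.3 CPM in OHT and 20.7, 23.4 and 21.3 in OHT_Dox, and its difference of 0.28 (SE 0.085, adjusted p = 0.114) was the largest among the members.

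The interaction term tests whether the response to OHT differed between uninduced and induced cells. No member and no gene passed in either direction with limma (0% of all genes risen and 0% fallen), and edgeR and DESeq2 called no member. At an unadjusted p below 0.05 there were 40 members, against 15.4% of all genes, and the smallest adjusted p of a member was 0.221. The median of the interaction over the members was 0.16, against -0.04 for all genes, and 94 of 107 had a positive sign. It was 0.17 for subunits and 0.08 for assembly factors, and 0.24 for the 11 complex IV subunits. ATP5ME had the largest value, 0.47 (SE 0.12): its change with OHT was -0.34 without doxycycline and 0.14 with it. Without Ctrl 1, 20 members had a positive interaction past the test, as did 1.46% of all genes. With all 12 libraries a different response to OHT in induced cells was not shown for any member.

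Several members are uncertain because of shared sequence. Exons of 60 of the 107 members overlap another gene, 33 on the same strand and 42 on the other. Reads of the readthrough row NDUFC2-KCTD14 differed from those of NDUFC2 by less than 1% in every library, so the 2 rows hold nearly the same reads. The readthrough row ATP5MF-PTCD1 had between 1.18 and 1.25 reads per read of ATP5MF. Of the 6 pseudogenes above the minimum, COX6A1P2 had a mean of 22.1 CPM over the 12 libraries.

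Tissue-specific isoforms and other paralogues below the minimum were nearly silent. COX6B2 (testis), COX7A1 (heart and muscle), COX7B2 and the paralogues NDUFA4L2 and ATP5MGL had between 0 and 16 reads in each library. They were not tested. COX4I2, COX6A2 and COX8C were not analysed here. NDUFA4, which NDUFA4L2 resembles, was 113 ± 7.59 CPM in Ctrl.

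Regulators and partner genes that the symbol rule does not take in were read from lists of known function. Of 10 regulators of respiratory genes above the minimum, 3 rose with OHT in each setting. Over all genes, 12.6% rose in OHT against Ctrl and 11.5% in OHT_Dox against Dox. PPARGC1B, a coactivator that promotes mitochondrial gene expression, was 10.8, 8.51 and 7.04 CPM in Ctrl, 19.3, 20.1 and 19.1 in OHT, 7.77, 10.4 and 9.62 in Dox and 19.2, 20.5 and 19.6 in OHT_Dox. All 6 libraries with OHT were above all 6 without it, and the changes were 1.13 (SE 0.12, adjusted p = 1.39e-06) and 1.06 (SE 0.12, adjusted p = 2.94e-06). PPRC1, a related coactivator, changed by 0.33 and 0.31, and ESRRA, a nuclear receptor that works with such coactivators, by 0.32 and 0.43. HIF1A, the oxygen-regulated factor, rose with doxycycline by 0.23 and fell by 0.27 in OHT_Dox against Dox, comparisons that share the Dox libraries. Its rise with doxycycline was not called by edgeR.

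Of 13 genes for replication and transcription of mitochondrial DNA, 4 rose and 1 fell with OHT, where 12.6% and 8.79% of all genes did. In OHT_Dox against Dox 4 rose and 2 fell, where 11.5% and 14.5% of all genes did. POLG2, the accessory subunit of the mitochondrial DNA polymerase, was 34.4, 37.5 and 35.6 CPM in Ctrl and 61.7, 46.2 and 61.4 in OHT, with changes of 0.64 (SE 0.096, adjusted p = 7.31e-05) and 0.58 (SE 0.096, adjusted p = 0.000158). TOP1MT, the mitochondrial topoisomerase, changed by 0.34 and 0.44, and the transcription factor TFB2M by 0.24 and 0.20.

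For the lists that follow, 12.6% of all genes rose and 8.79% fell in OHT against Ctrl, and 11.5% rose and 14.5% fell in OHT_Dox against Dox. Of 13 complex I assembly factors with other symbols 3 rose with OHT in each setting and none fell. TMEM70, which also serves ATP synthase assembly, changed by 0.41 (SE 0.071, adjusted p = 0.00031) and 0.51 (SE 0.071, adjusted p = 2.56e-05). CHCHD4, an import factor of the intermembrane space, changed by 0.33 and 0.22. Of 20 complex IV assembly factors with other symbols 1 rose and 3 fell with OHT, and 2 rose and none fell in OHT_Dox against Dox. COA7 changed by 0.47 (SE 0.066, adjusted p = 3.27e-05) and 0.35 (SE 0.066, adjusted p = 0.00062), whereas PET100 changed by -0.28 and CMC2 by -0.24 with OHT alone. Of 8 genes covering CYC1, cytochrome c and complex III assembly none passed the limma test with OHT alone, 1 had an unadjusted p below 0.05, and edgeR and DESeq2 called none. In OHT_Dox against Dox UQCC3 and BCS1L rose by 0.45 and 0.20 while LYRM7 fell by 0.29. Of 4 complex V assembly factors TMEM242 fell by 0.21 in OHT_Dox against Dox, a call that edgeR and DESeq2 did not make. Of the 45 genes of these 4 lists none passed the limma test in Dox against Ctrl, where 9 had an unadjusted p below 0.05 and edgeR called 2 and DESeq2 5. None passed in OHT_Dox against OHT with limma, edgeR or DESeq2, and 2 had an unadjusted p below 0.05.

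**Figure D5:**
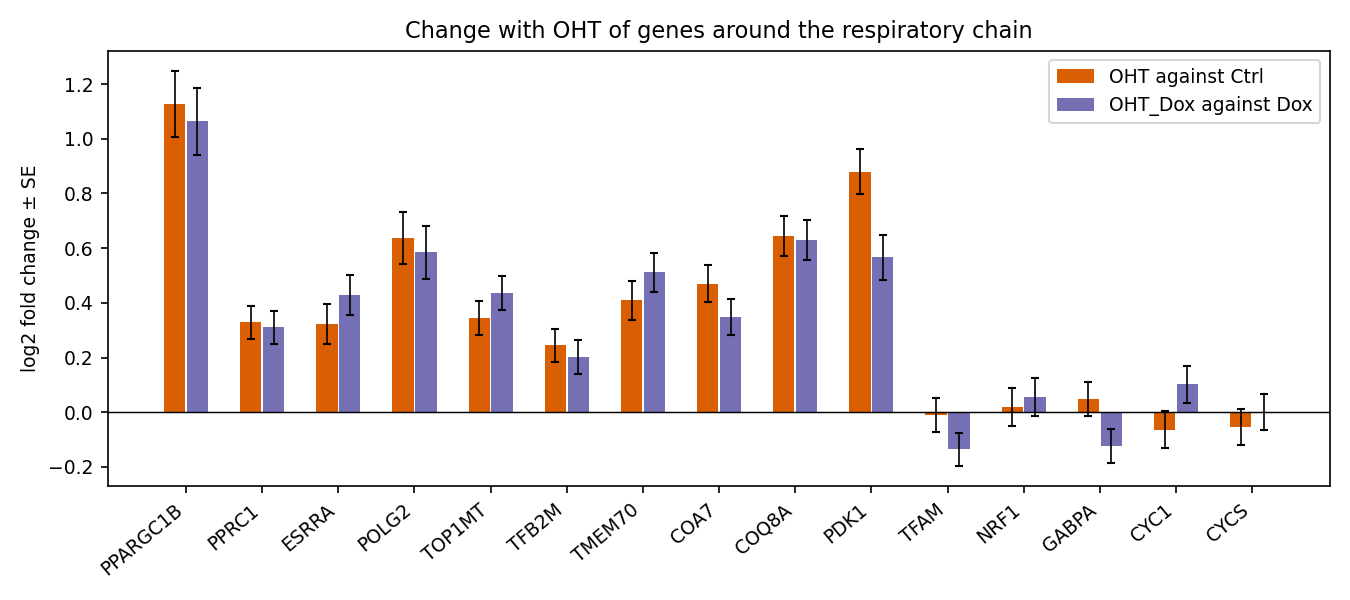
Log2 fold change with standard error (y axis) of 15 genes around the respiratory chain (x axis) with OHT, in uninduced cells (OHT against Ctrl) and induced cells (OHT_Dox against Dox). PPARGC1B has the highest bars, 1.13 and 1.06, and TFAM, NRF1, GABPA, CYC1 and CYCS, which passed no test here, lie near 0.

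The length of the principal transcript had a median of 805 bases for the 22 that fell with OHT and 2404 for the 4 that rose. It was 1039 for all coding members and 2983 for the 13419 genes tested that have one. Subunits had a median of 917 bases and assembly factors 2033. Another fit removed each library's trend on GC content and on the median length of a gene's annotated transcripts, which can differ from the principal length. In it 27 members fell and 3 rose with OHT, where 12.7% of all genes fell and 13.0% rose. In that fit 8 members rose in OHT_Dox against Dox (12.7% of all genes), and 13 fell with doxycycline (3.90% of all genes).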

How the data were processed

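The deposited table gives CPM, counts scaled by the authors to 1000000 per library, for 12 libraries of poly(A) RNA. Libraries were made with a strand-specific kit, per the labels' protocols. Tools named in the submitters' processing notes, over all assays of the series, are featureCounts, STAR, DRAGEN, Bowtie, Bowtie2 and FastQC, with hg19 and mm10 as builds. Which of them made the table, their versions and the strand setting are not given in the sources used here. All values were whole multiples of 1 read within 0.01 reads (100% of values), so read counts were recovered.

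The 18674 genes that reached 0.5 CPM in 3 or more libraries were fitted as log2(CPM + 0.5) by limma 3.58.1 (R 4.3.3), using group means, a shared spread and a mean trend. Tests are two-sided, Benjamini-Hochberg adjusted over all genes in each comparison, with a call below 0.05. The pseudocount draws changes of low genes towards 0. On the recovered reads edgeR 4.0.16 called 2377 rises and 1661 falls for OHT against Ctrl, and DESeq2 1.42.0 was also run. Other alternatives were TMM scaling, pseudocounts of 0.1 and 1, other filters, removal of length and GC trends, a replicate block and leaving out libraries. The fits were tested on simulated data.

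Members and lists were chosen with earlier results of these data known. Members named are the up to 8 largest called rises and falls with groups apart in each comparison, the member with the smallest p and that with the highest mean of each class, tissue isoforms, noncoding and readthrough rows, and the leading genes of other lists. Values of some genes that the rule names are not reported here. GENCODE release 29 gave transcript lengths and RefSeq the promoters.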

Additional observations from a re-analysis of the deposited data

How the results depend on the processing

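Each result was refitted under 22 alternatives, and none of the 43 named results that was called reversed. Of the 34 that were called, 6 stayed past the threshold in every alternative. Leaving out each library in turn gave 1 to 4 rises and 4 to 48 falls for OHT against Ctrl, with a median of -0.182 to -0.0898. It gave 3 to 8 rises and 0 to 2 falls for OHT_Dox against Dox, and 0 to 1 rises and 0 to 34 falls for Dox against Ctrl. For the interaction it gave 0 to 20 rises and a median of 0.11 to 0.22, the highest without Ctrl 1 and the lowest without Ctrl 2. The cause was not tested.

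For Dox against Ctrl the 8 falls became 14 with TMM scaling, 15 with edgeR, 29 with DESeq2, 13 with length and GC trends removed and 5 with no filter. The share of all genes that fell moved with them, from 2.61% to 4.05%, 4.31%, 6.27%, 3.90% and 1.11%. The 1 rise became 0 under each of these 5, and the median of the members was -0.140 with edgeR and -0.138 with DESeq2. For OHT_Dox against Dox the 6 rises became 11 with DESeq2, and 2 without Dox 1 and OHT_Dox 3 together. The 1 fall became 2 at a minimum of 1 CPM in at least 6 libraries, 0 with the trends removed, and 0 without Dox 1 and OHT_Dox 3 together.

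Replicate numbers are only numbers in the labels: of 18 pairs of libraries with the same number in different groups, 7 had deviations correlated above 0.1 (range -0.17 to 0.33). With a replicate block, 11 members rose and 2 fell in OHT_Dox against Dox, and 19 fell in Dox against Ctrl. With 3 libraries a group, a member that missed the threshold is not shown to be unchanged.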

Other observations

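Pathways that feed the respiratory chain were read in the same fits. Of 23 genes for the citrate cycle and the entry of pyruvate, 2 rose and 2 fell with OHT, where 12.6% and 8.79% of all genes did. In OHT_Dox against Dox 1 rose and 2 fell, where 11.5% and 14.5% of all genes did. PDK1, a kinase that inhibits pyruvate dehydrogenase, was 15.4, 14 and 14.7 CPM in Ctrl, 26.5, 27.7 and 28.2 in OHT, 15.9, 16.5 and 18.3 in Dox and 24.1, 27.6 and 24.1 in OHT_Dox. Every library with OHT was above every library without it, and the log2 fold changes were 0.88 (SE 0.081, adjusted p = 1.76e-07) and 0.57 (SE 0.081, adjusted p = 3.46e-05). DLAT, a component of pyruvate dehydrogenase, rose by 0.26 with OHT alone, and OGDH, which oxidises 2-oxoglutarate in the citrate cycle, fell by 0.16 and 0.19 in the 2 settings. PDHX, another component of pyruvate dehydrogenase, fell by 0.27 in OHT_Dox against Dox, and MPC2, a subunit of the pyruvate carrier, fell by 0.19 with OHT alone.

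Ubiquinone is the electron carrier between complexes I, II and III. Of 13 genes for its synthesis and handling, 1 rose and 1 fell with OHT, where 12.6% and 8.79% of all genes did. In OHT_Dox against Dox 1 rose and 2 fell, where 11.5% and 14.5% of all genes did. COQ8A, an atypical kinase that supports the pathway, was 45.3, 38.1 and 42.7 CPM in Ctrl, 65.4, 64.3 and 67.7 in OHT, 40.5, 42.8 and 40.4 in Dox and 60.7, 60.8 and 71.3 in OHT_Dox, with changes of 0.64 (SE 0.073, adjusted p = 2.53e-06) and 0.63 (SE 0.073, adjusted p = 3.24e-06). The libraries with OHT were all above those without it. COQ10B, a ubiquinone-binding protein, fell by 0.36 and 0.41, and COQ7, which hydroxylates a precursor of ubiquinone, fell by 0.27 in OHT_Dox against Dox.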
